A study of Mus musculus with 10 samples.

Results

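The regions described here are promoters at which a peak of lysine-specific demethylase 1 (LSD1) was called in skeletal muscle of starved mice and at which neither LSD1 in fed muscle nor the glucocorticoid receptor (GR) in either condition had a peak that touched it. Members were selected on the measured peak lists. An LSD1 starved peak counted when its midpoint fell no more than 1000 bp before or 100 bp after the transcription start site (TSS) of a curated RefSeq transcript and when it shared no base with an LSD1 fed, GR fed or GR starved peak. This gave 1270 starvation-only promoter peaks, assigned to 1251 genes, out of 4061 LSD1 starved promoter peaks, 66332 LSD1 starved peaks and 365066 peaks in the 8 lists of the series. The deposited LSD1 starved list is longer than the LSD1 fed list, which holds 16616 peaks. The text of the study describes a far shorter list for LSD1 in starved muscle, with fewer peaks than in fed muscle, and which peaks of the deposited list belong to it cannot be told from these files. Every member is therefore a peak of the list as deposited. The chromatin immunoprecipitation sequencing (ChIP-seq) libraries were made from skeletal muscle of C57BL/6J mice, labelled as 10 weeks old, that were either fed or starved for 24 h, and no genetic change or drug distinguished the groups. According to the study, the mice were male. Each antibody and each input had 1 library per condition, so no value has a replicate and no difference between fed and starved muscle could be tested. Chromatin came from nuclei of whole muscle, in which a weak site in muscle fibres and a strong site in a minor cell type cannot be told apart.

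LSD1, encoded by Kdm1a, is a flavin-dependent enzyme that removes methyl groups from mono- and dimethylated lysines of histone H3. On lysine 4 it is known as part of corepressor complexes, whereas its action on lysine 9 (H3K9me1 and H3K9me2) has been linked to activation together with nuclear receptors. GR is the receptor through which glucocorticoids, released during fasting, act on muscle. A promoter peak of LSD1 can lie in a CpG island, where C followed by G is frequent, or in CpG-poor sequence further upstream.

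The sequences of 7 starvation-only peaks are given first, because the members ranged from CpG-dense to CpG-free DNA. All are from GRCm38, on the strand of the gene, 5′ to 3′, and each of these peaks lay wholly upstream of the TSS in intergenic sequence. In the first pair the capitals mark matches to the E-box (CACGTG) or the GC box (GGGCGG). The peak upstream of En1, a homeobox transcription factor, covered chr1:120602289-120602437 and held 2 E-boxes, and the peak upstream of Met, the hepatocyte growth factor receptor, covered chr6:17463554-17463708 and held 2 GC boxes.
En1: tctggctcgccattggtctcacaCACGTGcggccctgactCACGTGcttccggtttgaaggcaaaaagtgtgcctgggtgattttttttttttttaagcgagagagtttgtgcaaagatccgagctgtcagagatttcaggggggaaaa
Met: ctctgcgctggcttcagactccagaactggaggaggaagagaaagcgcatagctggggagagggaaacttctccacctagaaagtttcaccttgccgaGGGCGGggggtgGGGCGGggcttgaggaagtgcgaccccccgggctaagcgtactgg

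In the other 5 sequences the capitals mark CG dinucleotides. The peak of the sodium/proton exchanger gene Slc9a2 (chr1:40681414-40681485) held 13 CG in 72 bp, and that of Dtnb, encoding beta-dystrobrevin (chr12:3572080-3572138), held 4 in 59 bp. The peak of Matn3, an extracellular matrix protein of cartilage (chr12:8947700-8947749), held 1 in 50 bp, and that of Lipm, a gene of the lipase family (chr19:34100114-34100162), held 0 in 49 bp. The peak of Gm13822 (chr5:114922464-114922565, minus strand) is shown because it had the smallest q-value of all members and lay in repeat sequence, of which 89.2% was masked in the assembly.
Slc9a2: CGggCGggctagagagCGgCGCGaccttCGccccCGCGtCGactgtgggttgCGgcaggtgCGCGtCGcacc
Dtnb: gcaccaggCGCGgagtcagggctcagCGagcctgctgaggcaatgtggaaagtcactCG
Matn3: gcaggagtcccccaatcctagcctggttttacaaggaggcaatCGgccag
Lipm: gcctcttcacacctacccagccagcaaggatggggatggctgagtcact
Gm13822: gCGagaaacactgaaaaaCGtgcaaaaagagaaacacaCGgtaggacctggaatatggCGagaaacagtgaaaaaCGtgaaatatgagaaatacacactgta

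The starvation-only peaks were weak, like the LSD1 starved peaks as a whole. Their median fold enrichment over input was 3.39, with a range from 2.22 to 5.79, and the median length was 103 bp, with a range from 49 to 515 bp. The median q-value was 0.0612. Over all LSD1 starved peaks these 3 medians were 3.44, 103 bp and 0.0613. A q-value of 0.01 or less was reached by 125 members, 9.84% (95% confidence interval, CI, 8.26 to 11.6), close to the 10.2% of all LSD1 starved peaks, and a q-value of 1e-05 or less by 4. A fold of at least 5 was reached by 6 members, 0.472% against 0.464% of all LSD1 starved peaks. The shortest length in the list, 49 bp, was found in 350 members, 27.6% (25.1 to 30.1), against 30.9% of all LSD1 starved peaks. Exactly the same pair of values, a fold of 3.35 with a q-value of 0.0748, was deposited for 82 members and for 5636 peaks of the whole list. All of these values come from the peak calling that selected the members and are given as a description. Exact binomial intervals are used throughout and cover counting error only.

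**Figure D1:**
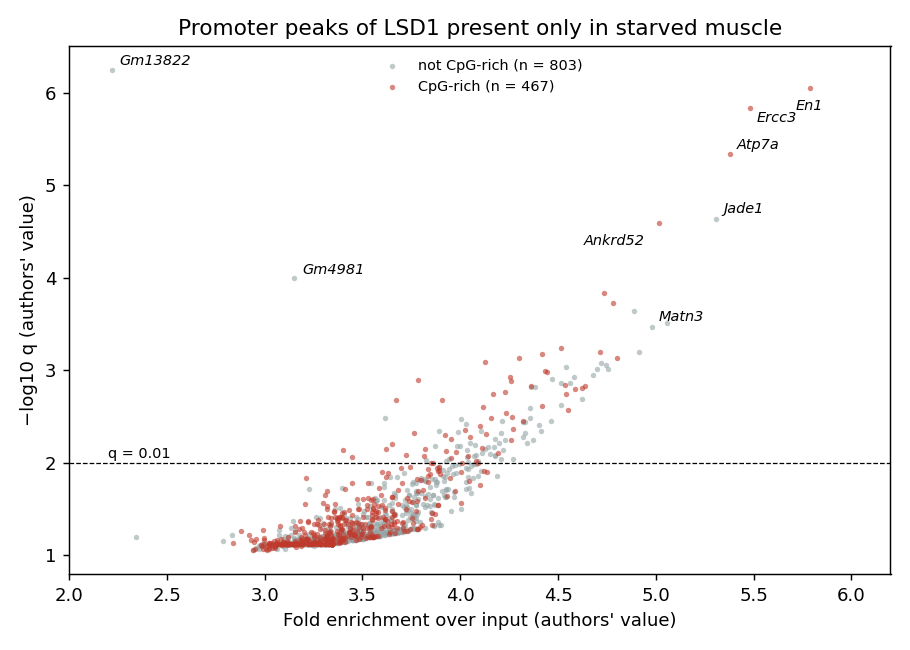
Fold enrichment over input (x axis) and −log10 of the q-value (y axis) of the 1270 starvation-only promoter peaks, 1 point per peak, red for CpG-rich sequence. Most points lie under the dashed line at a q-value of 0.01, which 125 peaks passed, and En1, Ercc3 and Atp7a stand at the upper right, whereas Gm13822 has the smallest q-value at the lowest fold.

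The highest fold was that of En1, at 5.79 (q = 8.96e-07), 124 bp upstream of the TSS, with the nearest LSD1 fed peak 42410 bp away. Ercc3, a helicase of the general transcription factor TFIIH, had a fold of 5.48 (q = 1.46e-06), but there an LSD1 fed peak lay only 4 bp from the member. Atp7a, a copper-transporting ATPase on chromosome X (chrX:106027276-106027326), had a fold of 5.38 (q = 4.62e-06) with its midpoint in the first exon, 77 bp downstream of the TSS. These were 3 of the 4 members with a q-value of 1e-05 or less, and the other was Gm13822.

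The next folds were 5.31 at Jade1 (chr3:41563249-41563301), encoding a scaffold of a histone acetyltransferase complex, 5.06 at Ndufa2, a subunit of respiratory complex I, and 5.02 at Ankrd52 (chr10:128377013-128377159), a regulatory subunit of a protein phosphatase. All 3 lay close to a peak of the excluding lists, at 56, 215 and 89 bp. The nearest LSD1 fed peak lay 161 bp from the Jade1 peak and 140 bp from the Ankrd52 peak. Matn3, Lipm, Mroh6 (chr15:75888697-75888753) and Atmin (chr8:116943451-116943505) followed with folds of 4.98, 4.92, 4.89 and 4.80. For these last 4 genes the nearest LSD1 fed peak was 21696, 821823, 20344 and 21559 bp away.

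Smallest q-values also went to Gm4981 (chr10:58236730-58237075), with a fold of 3.15 and a q-value of 9.97e-05, to Ccn1 (chr3:145649906-145649980), a secreted matricellular protein, with 4.73 and 1.44e-04, and to Atxn10 (chr15:85336176-85336508), with 4.78 and 1.88e-04. The longest members were those of Gmds at 515 bp, an enzyme of fucose synthesis, Micos10 at 502 bp, a subunit of the mitochondrial cristae complex, and Rbm33 at 477 bp. Length did not go with strength in these 3, whose folds were 3.26, 3.33 and 3.38.

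How far the label "LSD1 only in starvation" held for a promoter, rather than for a peak, was examined next. Of all LSD1 starved promoter peaks 31.3% met the rule, against 92.7% of the LSD1 starved peaks outside promoters. The promoter window of a member, from 1000 bp upstream to 100 bp downstream of its TSS, could hold a peak of the other lists that did not touch the member. An LSD1 fed peak lay in the window of 267 members (21.0%, 18.8 to 23.4), a GR starved peak in that of 304 (23.9%, 21.6 to 26.4) and a GR fed peak in that of 155 (12.2%, 10.5 to 14.1). Over all TSS windows these shares were higher, at 24.4% (23.9 to 24.9), 28.1% (27.6 to 28.6) and 15.3% (14.9 to 15.7), and the rule itself removed peaks that touched such a peak. No peak of these 3 lists lay in the window of 850 members, which is 66.9% (64.3 to 69.5). Over all 31601 RefSeq TSS positions 63.6% of the windows held none of them.

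At the level of genes, of the 1251 genes with a starvation-only peak, 240 (19.2%) had the midpoint of an LSD1 fed peak in a promoter, against 19.8% of all 26180 genes, and 64 also had a promoter peak of starved muscle that was shared with LSD1 fed. Within 30 kb of a TSS, 688 of the 1251 genes (55.0%, 52.2 to 57.8) had an LSD1 fed peak, against 49.6% of all genes. So 850 of the 1270 members marked a promoter window free of called LSD1 fed and GR peaks, and 420 marked a further site in a window that held at least 1.

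The distance from a member to the nearest LSD1 fed or GR peak had a median of 4262 bp and lay within 1000 bp for 496 members (39.1%). At the margin of the rule, the Miga1 and Zfp985 peaks adjoined a peak of the other lists with 0 bp between, and the Pcna peak, at the gene of the replication clamp, was 1 bp away. Among promoter peaks that were not members, those of Dock4, Gpaa1 and A930018P22Rik shared 2 bp. The folds on both sides were alike, at 3.62, 3.12 and 3.76 for the first 3 genes and 3.58, 3.42 and 3.21 for the others. At the upstream edge, the midpoints of the Banf2, Lingo3 and Polq peaks lay at −999, −998 and −996 bp relative to the TSS, whereas the nearest free peaks left out lay at −1002 bp and 1 bp past the downstream limit.

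The position in the promoter was not the same as for the other LSD1 starved promoter peaks. Starvation-only peaks had their midpoint a median of 283 bp upstream of the TSS, compared with 53 bp for the 1980 promoter peaks shared with LSD1 fed and 89 bp for the 811 shared with GR but not with LSD1 fed. Within 150 bp of the TSS lay 485 members (38.2%, 35.5 to 40.9), 70.8% (68.8 to 72.8) of the peaks shared with LSD1 fed and 59.2% (55.7 to 62.6) of those shared with GR only. More than 500 bp upstream lay 409 members (32.2%, 29.6 to 34.9), against 5.35% (4.40 to 6.44) and 10.5% (8.46 to 12.8). Whether the classes differed in position beyond what the exclusion of overlapping peaks fixed was not tested.

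**Figure D2:**
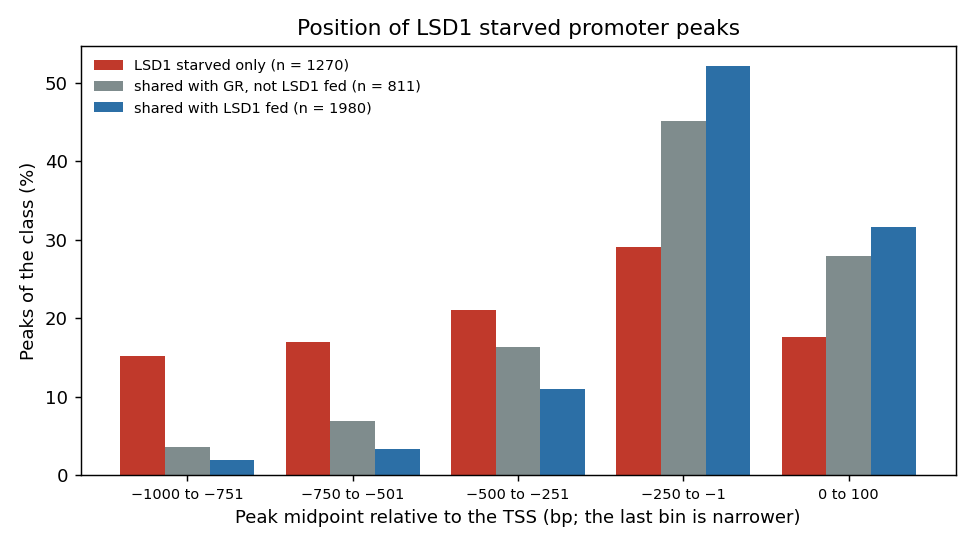
Share of each class of LSD1 starved promoter peaks (y axis, percent of the class) by the position of the midpoint relative to the TSS (x axis, bp, negative upstream). Red bars are starvation-only peaks, which are spread over the window with 15.2% in the most distal bin, whereas 52.1% of the peaks shared with LSD1 fed (blue) lie from 250 to 1 bp upstream.

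According to the annotation, the midpoint lay in intergenic sequence for 711 members (56.0%), in an intron for 257 (20.2%, 18.1 to 22.6) and in an exon for 302 (23.8%, 21.5 to 26.2). Of the peaks shared with LSD1 fed 9.90% (8.62 to 11.3) lay in an intron and 36.5% in an exon. A midpoint in the windows of TSSs on opposite strands, a divergent promoter, was found for 54 members (4.25%, 3.21 to 5.51) and for 13.8% (12.3 to 15.4) of the peaks shared with LSD1 fed. The nearest transcript was protein-coding for 1038 members (81.7%, 79.5 to 83.8) and for 87.9% of both other classes. A pair of members was found at 19 genes, among them Flnc, Kcnc4, Kcna7, Maf and Tead3, and no gene had more.

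Sequence composition was not used directly by the rule, but the rule removed peaks that touched LSD1 fed or GR peaks. How far that exclusion fixed the composition of the members was not tested. In the 300 bp around the midpoint, sequence was called CpG-rich when GC was at least 50% and the ratio of observed to expected CpG at least 0.6. Of the members 467 were CpG-rich (36.8%, 34.1 to 39.5), against 6.73% of all LSD1 starved peaks, 45.8% of the windows around all RefSeq TSSs, 74.0% (70.8 to 77.0) of the promoter peaks shared with GR only and 85.9% (84.3 to 87.4) of those shared with LSD1 fed. The TSS windows were centred on the TSS, whereas members had their midpoint a median of 283 bp upstream. These 2 shares are therefore not matched in position. The median GC content was 54.3% in members, 63.7% in the class shared with GR only and 67.0% in the class shared with LSD1 fed. Median CpG ratios were 0.478, 0.779 and 0.854 in the same order. The starvation-only peaks thus lay between the LSD1 starved peaks outside promoters, of which 2.70% were CpG-rich, and the promoter peaks that LSD1 also had in fed muscle.

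The CpG-rich share rose towards the TSS in every class but was lower for starvation-only peaks at each distance. In the most distal of 5 bins it was 8.81% (5.22 to 13.7) in members and 52.5% (36.1 to 68.5) in the peaks shared with LSD1 fed. From 250 to 1 bp upstream it was 52.4% (47.2 to 57.6) and 86.8% (84.6 to 88.8). From the TSS to 100 bp downstream it was 70.1% (63.6 to 76.0) and 92.3% (90.0 to 94.3). The intervals of these classes did not overlap in any of the 5 bins. Among peaks of 49 bp the CpG-rich share was 24.3% (19.9 to 29.1) in members and 86.9% (79.0 to 92.7) in the peaks shared with LSD1 fed.

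**Figure D3:**
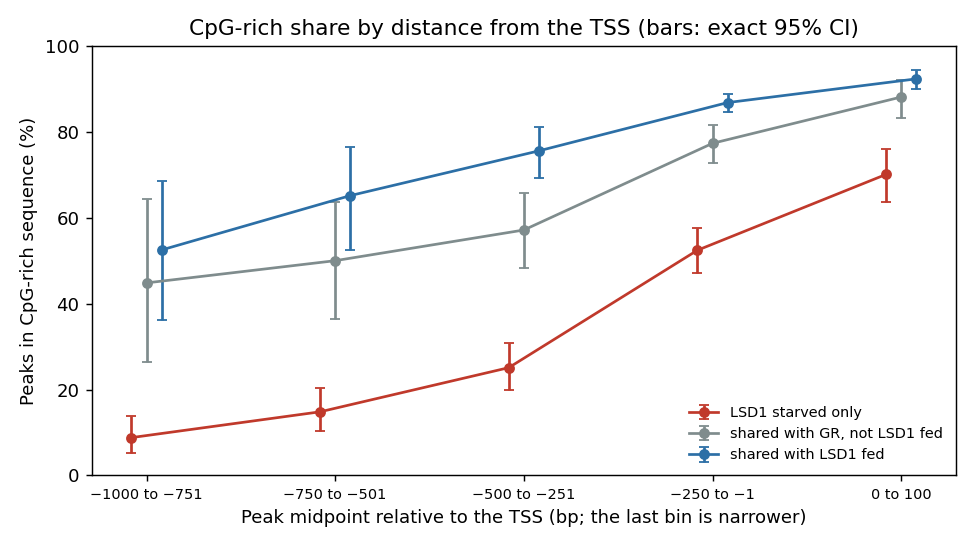
Share of LSD1 starved promoter peaks in CpG-rich sequence (y axis, percent, with exact 95% intervals) by the position of the midpoint relative to the TSS (x axis, bp). Starvation-only peaks (red) rise from 8.81% in the most distal bin to 70.1% at the TSS and lie below the peaks shared with LSD1 fed (blue) in all 5 bins.

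Short sequence motifs were counted in the same 300 bp on both strands. A match is a description and not a binding site. Shares for all TSSs are from the 300 bp centred on the TSS and are not matched to the members in position. The GC box (GGGCGG), the letters bound by Sp1, was found around 472 members (37.2%, 34.5 to 39.9), 44.3% of all TSSs and 75.7% (73.7 to 77.5) of the peaks shared with LSD1 fed. The core of the NRF1 motif (GCGCATGC), a factor of mitochondrial gene expression, was found around 27 members (2.13%, 1.41 to 3.08), 2.90% of all TSSs and 6.26% (5.24 to 7.42) of the shared peaks. The highest folds among the 27 were 4.10 at Vash1, 3.84 at Zscan29 and 3.78 at Ggnbp1. The ETS letters (ACTTCCGG) were found in 3.39% (2.46 to 4.53) and 6.82% (5.75 to 8.02), the YY1 letters (ATGGCGGC) in 2.83% (1.99 to 3.90) and 6.52% (5.47 to 7.69), and the cAMP response element (TGACGTCA) in 1.02% (0.546 to 1.74) and 3.08% (2.36 to 3.94), each time lower in members. Their shares around all TSSs were 4.37%, 3.51% and 2.14%.

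For a pair of motifs the order was the opposite. The TATA box (TATAAA) was found around 130 members (10.2%, 8.62 to 12), 9.97% of all TSSs and 5.96% (4.96 to 7.09) of the shared peaks. The half-site of GR (AGAACA) was found around 198 members (15.6%, 13.6 to 17.7), 15.8% of all TSSs and 8.13% (6.96 to 9.42) of the shared peaks, and an inverted repeat of the half-site with 3 bases between was found around 0 of the 1270 members (0 to 0.290). This repeat was as rare elsewhere, around 0 of the 1980 shared peaks and 0 of the 811 peaks shared with GR only. It was found around 1 of 31601 TSSs and 5 of 66030 LSD1 starved peaks. The E-box CAGCTG, read by MyoD, was found in 16.3% (14.3 to 18.4) of members, 17.9% of all TSSs and 17.5% (15.8 to 19.2) of shared peaks. The E-box CACGTG was found in 6.14% (4.88 to 7.61), 7.19% and 9.24% (8.0 to 10.6), the letters of FoxO factors (TGTTTAC) in 2.91% (2.06 to 3.99), 2.51% and 2.68% (2.01 to 3.49), and the half-site of the repressor REST (TTCAGCACC) in 0.315% (0.0859 to 0.804), 0.389% and 0.354% (0.142 to 0.727). For 6 of the 11 motifs searched by their letters, those of the GC box, NRF1, ETS, YY1, the cAMP response element and the E-box CACGTG, the members' interval lay below that of the shared peaks, and for the TATA box and the GR half-site it lay above. Motif counts follow base composition, which differed between the classes, and its part was not tested.

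H3K9 methylation, the substrate and product of LSD1, was measured by separate antibodies and was not used to choose the members. An H3K9me2 fed peak overlapped 106 starvation-only peaks, 8.35% (6.88 to 10.0). The share was 4.57% of all LSD1 starved peaks, 24.7% (21.7 to 27.8) of the promoter peaks shared with GR only and 29.7% (27.7 to 31.8) of those shared with LSD1 fed. Members were thus overlapped more often than LSD1 starved peaks at large and less often than the other promoter peaks, with intervals apart. How far the exclusion of peaks that touched LSD1 fed or GR peaks fixed this share was not tested. An H3K9me2 starved peak overlapped 5 members (0.394%, 0.128 to 0.916), against 0.831% of all LSD1 starved peaks.

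The list of H3K9me2 peaks was far longer in fed than in starved muscle, with 171402 and 6624 peaks. Taken as a share of each mark list, the peaks that touched a member made up 0.0618% of H3K9me2 fed and 0.0755% of H3K9me2 starved. For both H3K9 marks the fed and the starved library also carried different library codes in the labels, so that condition and library series cannot be told apart.

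The share overlapped by H3K9me2 fed differed with peak length. It was 5.43% (3.30 to 8.35) in members of 49 bp, 5.51% (3.12 to 8.93) up to 100 bp, 9.93% (7.34 to 13.1) up to 200 bp, 14.3% (9.28 to 20.7) up to 300 bp and 11.8% (3.30 to 27.5) in the 34 longer members. For the peaks shared with LSD1 fed, the shares at these lengths were 19.6% (12.6 to 28.4), 22.6%, 26.9%, 30.3% (26.2 to 34.6) and 38.1% (33.9 to 42.4). When only the base at the midpoint was counted, 61 members (4.80%, 3.69 to 6.13) and 15.8% (14.2 to 17.5) of the shared peaks lay in an H3K9me2 fed peak. By midpoint the members' shares, from the shortest to the longest bin, were 3.43% (1.78 to 5.91), 5.15% (2.84 to 8.49) and 5.74% (3.78 to 8.30). They were 3.11% (1.02 to 7.10) from over 200 up to 300 bp and 11.8% (3.30 to 27.5) in the 34 longer members. The value of the members was below that of the shared peaks at each of the 5 lengths and at the midpoint. CpG-rich members were overlapped at 11.6% (8.81 to 14.8) and the other members at 6.48% (4.87 to 8.41).

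H3K9me1 was seen at few members. An H3K9me1 fed peak overlapped 8 members (0.630%, 0.272 to 1.24), against 0.715% of all LSD1 starved peaks, and an H3K9me1 starved peak also overlapped 8 (0.630%), against 1.56%. In the peaks shared with LSD1 fed these shares were 2.73% (2.06 to 3.54) and 2.58% (1.92 to 3.37). In the peaks shared with GR only they were 2.59% (1.61 to 3.93) and 3.21% (2.10 to 4.66). The 8 and 8 mark peaks were 0.0564% of the H3K9me1 fed and 0.0210% of the H3K9me1 starved list. In the whole promoter window, an H3K9me2 fed peak was found for 25.7% (23.4 to 28.2) of members, 22.8% (22.4 to 23.3) of all TSSs and 49% (46.8 to 51.2) of the shared peaks. An H3K9me2 starved peak was found for 0.787% (0.378 to 1.44) of members, 0.196% (0.150 to 0.251) of all TSSs and 0.152% (0.0313 to 0.442) of the shared peaks. For both lists the interval of the members lay above that of all TSSs, although the second rests on 10 members. In the class shared with GR only these window shares were higher than in members. They were 46.0% (42.5 to 49.5) for H3K9me2 fed and 1.23% (0.593 to 2.26) for H3K9me2 starved, where the interval overlaps that of the members. H3K9me1 peaks were found in the windows of 2.13% (1.41 to 3.08) of members in fed and 2.76% (1.93 to 3.81) in starved muscle, against 1.91% and 3.11% of all TSSs.

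**Figure D4:**
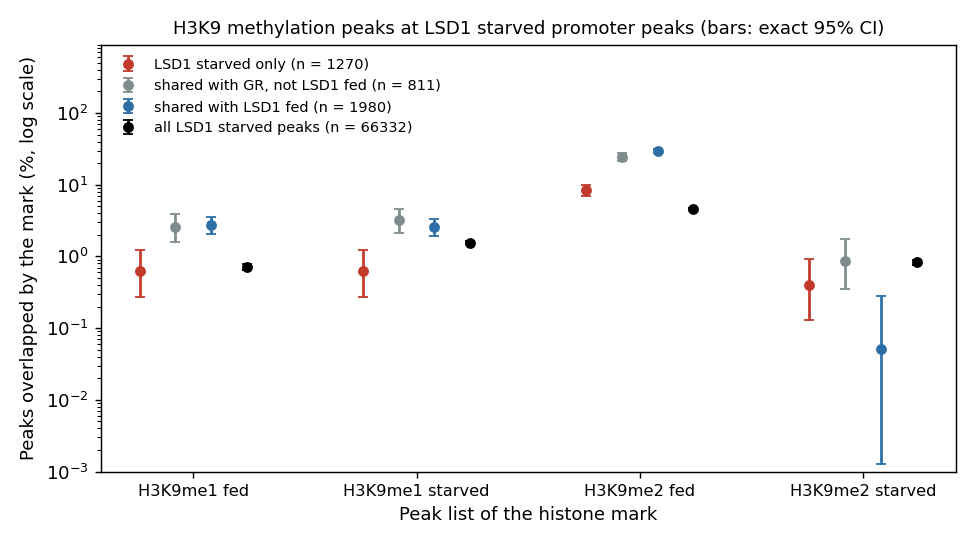
Share of LSD1 starved peaks overlapped by a peak of each H3K9 methylation list (y axis, percent on a log scale, with exact 95% intervals), for starvation-only promoter peaks (red), promoter peaks shared with GR only (grey) or with LSD1 fed (blue) and all LSD1 starved peaks (black). For H3K9me2 fed the red point, at 8.35%, lies above the black point at 4.57% and below the blue one at 29.7%.

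Of the 1270 members 1149 were overlapped by no mark peak, 117 by a peak of 1 list, 3 by peaks of 2 lists and 1 by peaks of all 4. The highest LSD1 folds among members in H3K9me2 fed were 4.78 at Atxn10, 4.42 at Dtnb and 4.41 at Met, where the H3K9me2 fed peak itself had a fold of 3.48, 3.80 and 3.05. Among members in H3K9me1 fed they were 3.93 at 4930483K19Rik, 3.85 at Cemip, a hyaluronan-binding protein, and 3.68 at Enkur. Among members in H3K9me1 starved they were 3.87 at Clca1, 3.60 at Ireb2, which binds iron-responsive RNA elements, and 3.48 at Lcorl. Among the 5 in H3K9me2 starved they were 3.80 at Speer4e, 3.77 at Tpgs2 and 3.57 at Obox2. The 2 others were Gm4981 and Gm13822.

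The Gm13822 peak was the member with all 4 marks. There the fold was 2.22 for LSD1 starved, 1.75 for H3K9me1 fed, 2.01 for H3K9me1 starved, 2.06 for H3K9me2 fed and 2.04 for H3K9me2 starved. The q-values were 5.65e-07, 0.0625, 3.13e-04, 6.12e-06 and 6.57e-04 in the same order. Enrichment was thus similar for every antibody that had a peak there, and 89.2% of its bases were repeat-masked. The part of repeat reads in this peak was not tested. Members with over 50% masked bases numbered 89 (7.01%, 5.67 to 8.55), compared with 25.3% of the LSD1 starved peaks outside promoters and 0.404% (0.175 to 0.795) of the promoter peaks shared with LSD1 fed.

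Chromosome X differed from the autosomes in the share that met the rule. Of 27 LSD1 starved promoter peaks on X, 20 were starvation-only (74.1%, 53.7 to 88.9), 5 were shared with LSD1 fed and 2 with GR only, whereas 1250 of 4033 on autosomes were starvation-only (31.0%, 29.6 to 32.4). The X members were also more often CpG-rich, at 15 of 20 (75%, 50.9 to 91.3) against 36.2% (33.5 to 38.9), and 14 of 20 lay within 150 bp of the TSS (70.0%, 45.7 to 88.1) against 37.7% (35.0 to 40.4). They included Atp7a, Kdm6a, which removes methyl groups from H3 lysine 27, Hdac6, a cytoplasmic deacetylase, and Piga, an enzyme of GPI anchor synthesis. Peaks on X were few in all 8 lists, from 0.498% of GR starved to 1.43% of H3K9me2 starved, with 0.698% of LSD1 fed and 0.580% of LSD1 starved, although X held 4.21% of the TSS positions. The 20 X members were likewise only 1.57% (0.965 to 2.42) of all members. The rule keeps a peak only where no LSD1 fed or GR peak touches it. How far the few such peaks on X fixed the share that met the rule there was not tested. Chromosome Y held 0 starvation-only promoter peaks.

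Gene groups were read against the share of all genes with a starvation-only peak, 4.78% of 26180. For the other classes the share of all genes was 7.34% for a promoter peak shared with LSD1 fed and 3.02% for a promoter peak shared with GR only. None of 23 GR target and stress genes had one (0%, 0 to 14.8), whereas 15 (65.2%) had a promoter peak shared with LSD1 fed. Since the rule removed every peak that touched a GR or LSD1 fed peak, nothing about GR target genes can be read from this contrast. None of 19 circadian clock genes (0 to 17.6) and none of 22 myogenic factors (0 to 15.4) had one, with 3 and 6 genes shared with LSD1 fed, and all 3 intervals hold the 4.78% of all genes. The atrophy ubiquitin ligase genes Fbxo32 and Trim63, the FoxO genes Foxo1 and Foxo3, the GR gene Nr3c1 and Kdm1a itself each had 1 promoter peak shared with LSD1 fed and no starvation-only peak.

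Among 29 genes of LSD1 complex partners, 5 had a starvation-only peak (17.2%, 5.85 to 35.8), 5 had one shared with LSD1 fed and 5 one shared with GR only. The genes with a starvation-only peak included Zmym3 (fold 3.61, chrX:101419864-101419912), Rbbp7 (3.57, chrX:162759992-162760206), Rreb1 (3.09, chr13:37826558-37826606) and Ctbp2 (3.02, chr7:133123507-133123666). Zmym3 is a zinc finger protein of these complexes, Rbbp7 binds histones, and Ctbp2 is a corepressor. The q-values of the 5 starvation-only peaks lay between 0.0321 and 0.0778, and 4 of them were CpG-rich. The nearest peak of the excluding lists was 86941 bp away at Zmym3, 69239 bp at Rbbp7, 14 bp at Rreb1 and 420 bp at Ctbp2.

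Of 28 genes for enzymes and readers of H3K9 methylation 3 had a starvation-only peak (10.7%, 2.27 to 28.2). The peak of Setdb1, a trimethylase of H3K9, had a fold of 3.73 and lay at −771 bp from the TSS. That of Ehmt2, a mono- and dimethylase also known as G9a, had a fold of 3.52 at −361 bp, 5 bp from a peak of another list. That of Cbx1, which binds methylated H3K9, had a fold of 3.20 at −935 bp. Their q-values were 0.0301, 0.0456 and 0.0748, so none reached 0.01. In this group 5 genes had a promoter peak shared with LSD1 fed.

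In the lists of signalling and protein degradation, from 4.44% to 8.97% of the genes had a starvation-only peak, and each interval held the 4.78% of all genes. Of 39 genes of insulin, mTOR and FoxO signalling 3 had one (7.69%, 1.62 to 20.9), Ddit4l at a fold of 4.27 (q = 0.00915), an inhibitor of mTOR signalling, Irs2 at 3.41, an insulin receptor substrate, and the kinase gene Akt1 at 3.09, while 12 (30.8%) had a shared peak. Irs2 had both a starvation-only peak and 1 shared with LSD1 fed. Of 45 autophagy genes 2 had one (4.44%, 0.543 to 15.1), Atg12 at 3.74 and Vmp1 at 3.53, against 11 with a shared peak. Of 21 genes of muscle ubiquitin ligases and ubiquitin 1 had one (4.76%, 0.120 to 23.8), Stub1 at 3.17, against 7. Among 40 proteasome genes 3 had one (7.5%, 1.57 to 20.4), Psma4 at 3.30, Psmb6 at 3.25 and Psmd3 at 3.20, against 7, and among 78 genes of F-box proteins, the substrate receptors of ubiquitin ligases, 7 had one (8.97%, 3.68 to 17.6), against 7. The highest folds there were 3.54 at Fbxo11, 3.50 at Fbxo3, 3.36 at Fbxw27 and 3.29 at Fbxl22.

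In metabolism, the only gene of 35 for fuel switching and fat oxidation was Ppargc1a, a coactivator of mitochondrial biogenesis (fold 3.24, q = 0.0748, chr5:51554094-51554188), against 11 with a shared peak. In the myostatin and activin pathway it was the receptor gene Tgfbr1, at 3.55, 1 of 16. Of 98 respiratory chain genes 3 had a starvation-only peak (3.06%), Ndufa2 at 5.06, Atp5j2 at 3.32 and Ndufs4 at 3.24, against 15 with a shared peak. Of 78 genes of mitochondrial ribosomal proteins 4 had one, Mrps28 at 4.11 (q = 0.00451), Mrpl49 at 3.31, Mrps30 at 3.27 and Mrpl24 at 3.22, against 8.

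The cytosolic ribosomal proteins had 6 of 85 genes (7.06%, 2.63 to 14.7), against 21 with a shared peak. The 3 highest folds were all on chromosome X, at 4.54 for Rpl39 (q = 0.00182, chrX:37085188-37085258), 4.27 for Rpl10 (q = 0.0043, chrX:74270876-74270924) and 3.35 for Rps4x. Each of these lay within 84 bp of the TSS in CpG-rich sequence, with the nearest peak of the excluding lists at least 10117 bp away. Next came Rps26 at 3.30. Histone genes had 1 of 103, H2bc11 at 3.59, against 14 with a shared peak.

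Of 44 genes for sarcomere and contraction 5 had a starvation-only peak (11.4%, 3.79 to 24.6) and 12 had a shared one. Filamin C (Flnc), an actin crosslinker of the Z-disc, had 2, with folds of 4.17 (q = 0.00178, chr6:29433241-29433468) and 3.13. Slow skeletal troponin T (Tnnt1) had 4.03, cardiac and slow troponin C (Tnnc1) 3.77 and fast troponin T (Tnnt3) 3.41. The M-band gene Myom3 had 3.28. Of 10 marker genes of muscle fibres 5 had an LSD1 starved promoter peak and 5 an LSD1 fed one, whereas of 19 marker genes of other cells in muscle 1 had a starved and 0 a fed one. That gene was Pecam1, a marker of endothelial cells, with a starvation-only peak at a fold of 4.15 (q = 0.00796, chr11:106715249-106715300) 6 bp downstream of the TSS. As 1 of 19 genes it made up 5.26% (0.133 to 26.0), and this interval holds the 4.78% of all genes. Of the 10 fibre markers only Tnnt3 had a starvation-only peak. Over all genes 19.8% had the midpoint of an LSD1 fed peak in a promoter. For LSD1 starved promoter peaks the shares of all genes were 4.78% starvation-only, 3.02% shared with GR only and 7.34% shared with LSD1 fed.

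Families that are mostly silent in muscle also held starvation-only peaks, at a share near or below that of all genes. Olfactory receptors had 14 of 1125 (1.24%, 0.682 to 2.08), and vomeronasal receptors 6 of 350 (1.71%, 0.632 to 3.69). Neither family had a promoter peak shared with LSD1 fed. The highest folds were 3.86 at Olfr140, 3.77 at Olfr1411, 3.67 at Olfr177, 3.61 at Olfr463 and at Vmn2r117, 3.57 at Vmn1r168, 3.28 at Vmn2r16 and 3.25 at Vmn2r129. All 20 of these peaks lay in sequence that was not CpG-rich, and the median fold was 3.47 for olfactory and 3.26 for vomeronasal receptors, beside 3.39 for all members. Defensins had 4 of 74, keratins and keratin-associated proteins 2 of 113, clustered protocadherins 1 of 58, with Pcdhgb8 at 3.28, and Hox genes 1 of 39, with Hoxd3 at 3.35, and none of these families had a shared peak. The leading folds were 3.67 at Defa30 and 4.21 at Krt82.

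Neuronal genes under REST had 2 of 30, Rab3c at 3.82 and Bdnf, a neurotrophin, at 3.42, with 0 shared. Potassium channels had 7 of 98 (7.14%, 2.92 to 14.2) and 2 with a shared peak. Their leading folds were 4.42 at Kcnc4 (q = 0.0024, chr3:107459238-107459286), 3.92 at Kcnc2, 3.71 at Kcna7 and 3.35 at Kcna5. Homeobox genes, a list chosen after their values were seen, had 12 of 239 (5.02%, 2.62 to 8.61) and 5 with a shared peak. There Dlx3 had 4.71 (q = 6.38e-04), Cdx1 4.70, Lhx3 4.03 and Otx2 3.82. En1 is described as engrailed in the annotation, so this list did not hold it.

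Solute carriers had 22 of 397 (5.54%, 3.51 to 8.27), led by Slc24a3 at 4.19, Slc9a2 at 3.95, Slc15a3 at 3.93 and Slc41a2 at 3.87. Zinc finger genes named Zfp had 21 of 403 (5.21%, 3.25 to 7.86), led by Zfp358 at 4.54 and Zfp787 at 4.26. Among noncoding genes, microRNAs had 29 of 1190 (2.44%, 1.64 to 3.48), led by Mir1983 at 4.32, and small nucleolar RNAs 6 of 115 (5.22%, 1.94 to 11.0), led by Snord104 at 3.93. For these the annotated start is that of the hairpin or the small RNA and not of the primary transcript. Predicted genes named Gm had 71 of 2323 (3.06%) and Riken clones 67 of 1929 (3.47%).

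**Figure D5:**
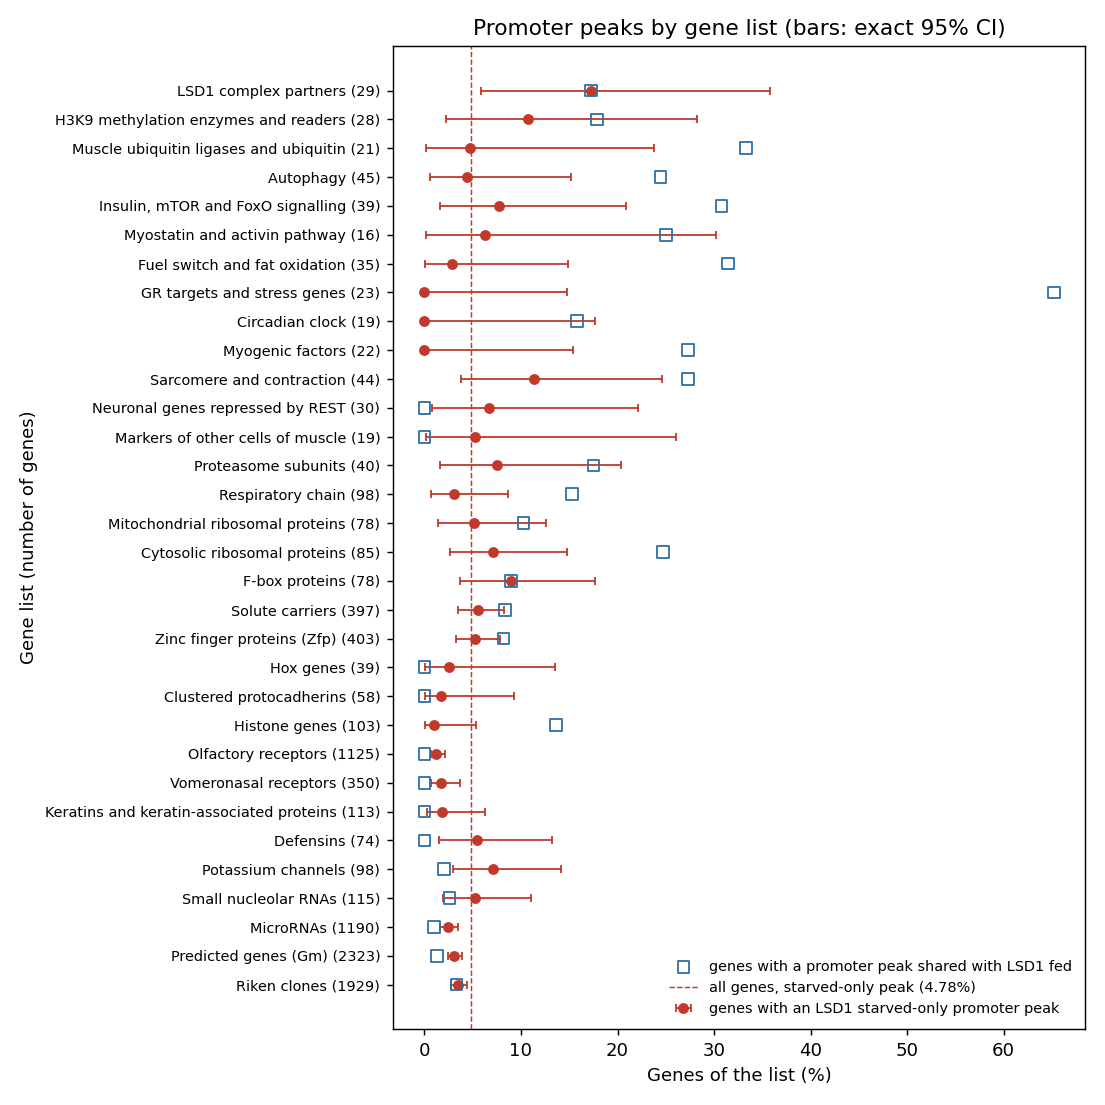
Share of the genes of each list (y axis, number of genes in brackets) with a starvation-only promoter peak (red, with exact 95% intervals) or with a promoter peak shared with LSD1 fed (blue squares), in percent (x axis). The dashed line marks the 4.78% of all genes with a starvation-only peak and lies within the red interval of 26 of the 32 lists. The rule fixes in part how the symbols lie for lists rich in GR or LSD1 fed peaks.

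The interval of the starvation-only share held the 4.78% of all genes for 26 of the 32 lists. It lay above for 1 list, the LSD1 complex partners, and below for 5, the olfactory and vomeronasal receptors, microRNAs, predicted genes and Riken clones. Among the 29 partner genes, 17.2% had a promoter peak shared with LSD1 fed and 17.2% one shared with GR only. Over all genes these 2 shares were 7.34% and 3.02%, so the higher share was not particular to starvation-only peaks. No list was tested, and many lists were read side by side.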

How the data were processed

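The data were ChIP-seq peak lists from 8 antibody libraries of mouse skeletal muscle, 1 per antibody and condition, and 2 input libraries had no peak list. According to the study's methods, single-end reads were aligned to mm10, uniquely mapped reads were kept, and broad peaks were called with MACS2 against the input with an extension of 150 bp. Each deposited list gives, per peak, the fold enrichment over input as a ratio and the −log10 of the p-value and of the q-value, as calculated by the authors. Although the methods state a stricter false discovery rate, the lists reach q-values of 0.0925 to 0.0998. No read counts were analysed, so the read depth behind each peak is unknown. The labels name bcl2fastq 2.20.0.422.

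Peaks were assigned to RefSeq TSSs (GRCm38) from 1000 bp upstream to 100 bp downstream of the TSS by the midpoint and named after the nearest TSS. Overlap meant at least 1 shared base. Sequence in 300 bp around the midpoint was read from the GRCm38 assembly. Shares have exact binomial 95% intervals (scipy 1.17.1), and the scripts (Python 3.11.15, pandas 2.3.3) were tested on simulated intervals against bedtools 2.31.1. With 1 library per group no difference between conditions was tested.

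Named genes were the 10 highest folds among members with a q-value of 0.01 or less, the 10 smallest q-values, the 3 longest peaks, up to 4 genes per gene list, up to 3 per H3K9 methylation list, the 3 highest folds with the NRF1 core and the 3 peaks on either side of the rule's limits. From these the text gives those with a value of interest. The sequences of Slc9a2, Dtnb and Met were chosen after their values were seen. The members and lists were chosen with earlier results of these data known. Alternatives changed the q-value and fold limits, the promoter window, the overlap, the excluding peaks, the chromosomes and the transcripts. Some genes of the lists are not reported here by name.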

Additional observations from a re-analysis of the deposited data

How the results depend on the processing

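The number of starvation-only promoter peaks was 1270 and ranged from 4 to 2208 over 10 alternatives. With members limited to a q-value of 0.01 or less, 125 remained under the rule, of which 1.60% were overlapped by H3K9me1 starved, 46.4% were CpG-rich and 61.6% had a promoter window free of LSD1 fed and GR peaks. At a limit of 1e-05 the rule gave 4, with 25% overlapped by H3K9me2 fed, 25% by H3K9me1 starved, 75% CpG-rich and 75% with a free window. With a fold of at least 5 there were 6, with 0%, 0%, 66.7% and 33.3% for the same measures. A window reaching 1000 bp downstream gave 2208 members, 60.2% with a free window. When only peaks that covered at least 50% of the shorter peak excluded a member, the shares were 10.3%, 1.25%, 42.5% and 56.3%. When any excluding peak within 1000 bp removed a member, 774 were left, with 6.46% overlapped by H3K9me2 fed, 32.8% CpG-rich and 100% with a free window, which the setting itself fixes. When an excluding peak had to reach a q-value of 0.01, 2028 members were found, and the shares were 13.9%, 1.38%, 53.2% and 83.6%. In that setting a window counted as free when it held no LSD1 fed or GR peak at that limit. The setting itself therefore fixes the last share in part. The cause of the other changes was not tested. Taking any base of a peak in the window gave 1418 members, coding transcripts only 1101, and chromosomes 1 to 19 and X only 1270, and none of these 3 alternatives moved one of the 4 shares beyond its interval. The number of peaks thus follows the calling thresholds of single libraries, and a peak below threshold in fed muscle cannot be told apart from an absent one. Read depth limits every list and is unknown. No paired analysis was possible because each group had 1 library.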
